A study of Mus musculus with 18 samples.

Results

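At the spherical neural mass (SNM) stage, mouse embryonic stem (ES) cells with a knockdown of HPRT were compared with control cells across all genes on the array. The comparison took the 3 HPRT knockdown and the 3 control arrays of this stage, 6 of 18 in all, and the 20765 of 45281 probes whose detection p-value was under 0.05 on every array of at least 1 of the 2 conditions. Both conditions began from ESD3 (D3) cells of strain 129s2/SvPas, which were grown on embryonic fibroblast feeder cells with leukemia inhibitory factor and then differentiated towards dopaminergic neurons. Control (SNM) cells carried an shRNA against luciferase and HPRT knockdown (SNM) cells an shRNA designed against human HPRT. The labels give the vector as a retrovirus and the methods as a lentivirus, with puromycin selection of the transduced cells. Whether either line was a single clone is not given in the sources used here, and no second shRNA and no cells with HPRT restored were analysed. RNA of independently replicated cultures was pooled for each condition and hybridised in triplicate, so that every p-value below measures the spread between arrays of 1 pool and not between cultures. The other 12 arrays held the same 2 lines at the undifferentiated ES stage and the final neuronal stage.

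HPRT (hypoxanthine-guanine phosphoribosyltransferase) recycles the free purine bases hypoxanthine and guanine into nucleotides, and its loss in people causes Lesch-Nyhan disease, a disorder with gout and with severe movement and behavioural symptoms of the basal ganglia. Spherical neural masses are floating balls of neural precursors that can be passaged and later matured into neurons. A neural precursor takes its regional identity from opposing signals: Shh, secreted by the floor plate, sets ventral fate, BMPs and Wnts set dorsal fate, and Wnt, FGF and retinoic acid posteriorise, with Fgf8 of the midbrain-hindbrain boundary maintaining the engrailed genes. Cells that leave the cell cycle pass through proneural factors to neurons, and later precursors turn to astrocytes, ependymal cells and oligodendrocytes.

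All arrays were of similar quality. Between 20090 and 21491 probes were detected on the control arrays and between 21853 and 22202 on the knockdown arrays. Pairwise correlations of log2 signal lay between 0.988 and 0.996 within a condition and between 0.954 and 0.965 across conditions. Of the precursor markers, Sox2, a transcription factor of neural and pluripotent cells, was present in both conditions. Its log2 signals averaged 10.21 in control and 10.55 in knockdown cells. Sox1 was not among the probes tested, and other precursor markers, given below, rose (Vim, Nes) or fell (Pax6, Sox3). ES cell factors were still measured, with Pou5f1 at 9.95 and 9.85 against 12.31 in control ES cells. One chromosome stood apart: of 443 genes on chromosome 15, 95 (21.4%) were called lower and 32 (7.22%) higher in knockdown cells, with a median log2 fold change of -0.28, whereas the medians of the other chromosomes lay between -0.09 and 0.03. Leaving those genes out gave 1733 genes higher and 1195 lower of 14289. Of the gene lists below, those of DNA replication, mitosis, midbrain, floor plate, pluripotency and oligodendrocytes had no tested member on this chromosome. The cholesterol list had 13 falls of 36 tested genes without it, against 15 of 38 with it. Whether the chromosome had a part in changes of genes elsewhere was not tested.

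Of the 20765 probes tested, 2278 (11%) were called higher and 1849 (8.9%) lower in knockdown cells, a call being a Benjamini-Hochberg adjusted p-value under 0.05 in limma with a change of at least 1.5-fold. Taking the brightest probe of each gene, 1765 of 14732 genes (12%) were higher and 1290 (8.76%) lower. These 2 shares are the background for counts of tested genes at this stage with the normalization used throughout. Signals without background correction or with a larger offset compress the fold changes of dim probes, and the 3 such normalizations called between 1240 and 1498 probes higher and between 937 and 1204 lower. Counts below with these alternative normalizations therefore stand against a smaller background, given here over probes only. Large rises outnumbered large falls. Rises of at least 4-fold were seen for 135 genes and falls of that size for 25, and at 8-fold 28 genes were higher against 1 lower. The genes that rose at least 4-fold had a median log2 signal of 5.65 in control cells, where the lowest detected signal of an array lay between 4.72 and 4.84, and 21 of them were detected on no control array. Those that fell at least 4-fold had a median log2 signal of 8.94 in control against 6.57 in knockdown cells. Over all genes the median log2 fold change was -0.02 and the median standard error 0.10.

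**Figure D1:**
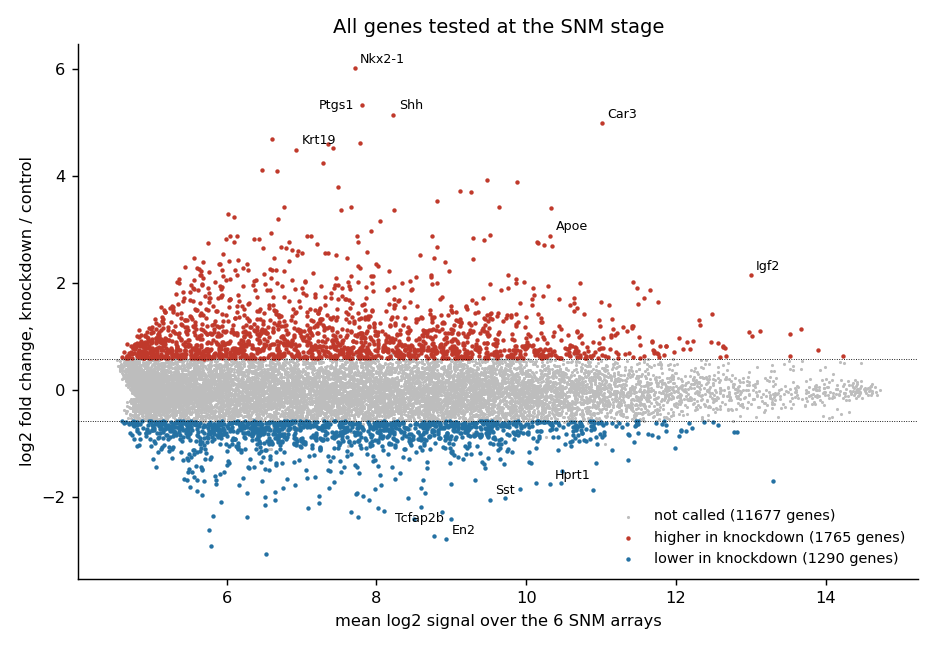
Log2 fold change of knockdown over control cells (vertical axis) against the mean log2 signal over the 6 SNM arrays (horizontal axis) for the 14732 genes tested. Red points are the 1765 genes called higher and blue points the 1290 called lower, dotted lines mark 1.5-fold, and rises reach further from 0 than falls.

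A gene whose probe was below detection in 1 condition could enter the comparison only through the other, so counts were also taken over the 13169 genes detected on all 6 arrays. Of these, 1465 (11.1%) were higher and 1188 (9.02%) lower, which is the background for counts over genes detected on all 6 arrays. The detection threshold itself fell among dim probes. The 131 probes with a deciding p-value between 0.045 and the threshold of 0.05 had a median log2 signal of 4.78 and a median absolute log2 fold change of 0.15, and the 95 probes between 0.05 and 0.055, which were not tested, had 4.79 and 0.17.

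The targeted gene was lower in knockdown cells. Log2 signals of Hprt1, as the array names the gene for HPRT, were 11.23, 11.22 and 11.13 on the control arrays and 9.34, 9.47 and 9.50 on the knockdown arrays. The conditions did not overlap, and the log2 fold change was -1.76 ± 0.081 (standard error throughout; adjusted p = 5.32e-11), which corresponds to 3.39-fold less signal. All 3 Hprt1 probes were called lower. In ES cells the gene changed by -4.09 and in neuronal cells by -4.45 on the same scale, so that the fall was smaller in SNM cells than in either. The SNM effect minus the ES effect was 2.33 (adjusted p = 3.42e-10), and the neuronal effect minus the SNM effect -2.69 (adjusted p = 1e-11). Mean log2 signals in knockdown cells were 7.95 at the ES, 9.44 at the SNM and 6.60 at the neuronal stage, against 12.04, 11.20 and 11.05 in control cells.

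Ligand and receptor of the hedgehog pathway were higher in knockdown cells. In this pathway Shh is the ligand, Ptch1 its receptor and at the same time a target of its transcription factors, the Gli proteins, and Cdon a co-receptor that binds Shh. Log2 signals of Shh were 5.77, 5.72 and 5.46 on the control arrays and 10.91, 10.91 and 10.58 on the knockdown arrays, a change of 5.15 ± 0.13 (adjusted p = 2.44e-14). The Shh probe thus went from just above the array background to a bright signal, and a second Shh probe rose as well. Ptch1 rose by 1.23 ± 0.064 and Cdon by 0.86 ± 0.16. Hhip, another target that binds and limits Shh, had a log2 fold change of 0.33 ± 0.15 and was not called. Gli1, the most direct target gene, was not among the probes tested. Gli3, the main repressor of hedgehog targets, fell by 0.78 on the log2 scale on its brightest probe (adjusted p = 4.54e-05), while its other probe was not called. Gli2, another of the Gli proteins, fell by 0.62 on the log2 scale on 1 of 2 probes (adjusted p = 1.94e-06). That fall was under 1.5-fold with quantile normalization and with an offset of 50. Of 14 hedgehog genes tested of 23 on the array, 4 were higher and 2 lower (1 to 2 with the alternative normalizations). The median log2 fold change of the list was 0.01.

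Genes that specify the floor plate and, in the midbrain, dopaminergic precursors were mostly higher. Of 20 of 27 genes of this list tested, 15 were higher and 1 lower, with a median log2 fold change of 1.12. Over the 17 members detected on all 6 arrays the counts were 12 and 1. Lmx1a, a homeodomain factor of the midbrain floor plate, gave 5.63, 5.57 and 5.67 on the control arrays and 8.16, 8.09 and 7.87 on the knockdown arrays, a change of 2.42 ± 0.11 (adjusted p = 3.48e-11). Foxa1, a forkhead factor of floor plate and endoderm, gave 6.72, 6.71 and 6.52 on the control arrays and 8.97, 8.93 and 8.86 on the knockdown arrays, a change of 2.27 ± 0.18. In both genes every knockdown array lay above every control array. Corin, a membrane protease used to isolate floor plate cells, rose by 2.22 ± 0.11, Slit2, a secreted repellent of the ventral midline, by 2.21 ± 0.13, and Msx1, a homeodomain factor downstream of Lmx1a, by 1.48 ± 0.13. Foxa2 was detected on 2 of 3 control arrays and had a log2 fold change of 1.05 ± 0.13, which fell under 1.5-fold in all 3 alternative normalizations. Ddc, the decarboxylase that makes dopamine, fell by 0.70 on the log2 scale (adjusted p = 3.48e-06). Nr4a2, which drives dopaminergic maturation, had -0.38 ± 0.20 and was not called, and Th, the rate-limiting enzyme of dopamine synthesis, was not among the probes tested.

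Rises were also seen in the ventral forebrain and hypothalamus. Of 24 of 37 genes tested, 10 were higher and 4 lower, and of 15 detected on all 6 arrays 6 and 3. Nkx2-1, the homeodomain factor that marks the hypothalamus and the medial ganglionic eminence, gave log2 signals of 4.67, 4.65 and 4.79 on the control arrays and 10.68, 10.73 and 10.73 on the knockdown arrays. It was detected on 1 of 3 control arrays, and its log2 fold change of 6.01 ± 0.061 is therefore measured from a signal at the array background. Its paralogue Nkx2-4, a hypothalamic gene, had no signal above detection on the control arrays and in knockdown cells was higher by at least 13.6-fold (adjusted p = 1.12e-14) on its brightest probe. Another Nkx2-4 probe was dim, with means of 4.31 and 5.12, and rose by 0.81 ± 0.15. Dlx1, which specifies GABAergic neurons of the ventral forebrain, gave 6.36, 6.43 and 6.55 on the control arrays and 9.43, 9.42 and 9.38 on the knockdown arrays, a change of 2.96 ± 0.090. These 3 genes separated the conditions without overlap. Tbx3, a repressor expressed in the ventral hypothalamus, rose by 1.34 ± 0.13, whereas Rax, needed for the early hypothalamus and eye, was detected on no control array and was at least 1.4-fold higher on 1 of 2 probes, a change under 1.5-fold in all 3 alternative normalizations. Other ventral forebrain genes went the opposite way: Gsx1, a homeodomain factor of the ganglionic eminences, fell by 1.17 on the log2 scale (adjusted p = 1.11e-06) and Vax2, of the ventral eye and detected on 2 of 3 knockdown arrays, by 1.63. In the dorsal forebrain and eye list 6 of 15 tested genes were higher and 3 lower (1 to 2 with the alternative normalizations). Over the 9 members detected on all 6 arrays the counts were equal, 3 and 3. The median log2 fold change of the list, 0.17, was -0.04 without control array 1. Otx1, of the forebrain and midbrain, rose by 1.47 ± 0.100, and Fezf2, of the deep cortical layers and the early forebrain, was at least 2.61-fold higher, with no control array detecting it. Pax6, a factor of dorsal precursors and eye, fell by 0.97 on the log2 scale (adjusted p = 7.38e-05) but by less than 1.5-fold in all 3 alternative normalizations.

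**Figure D2:**
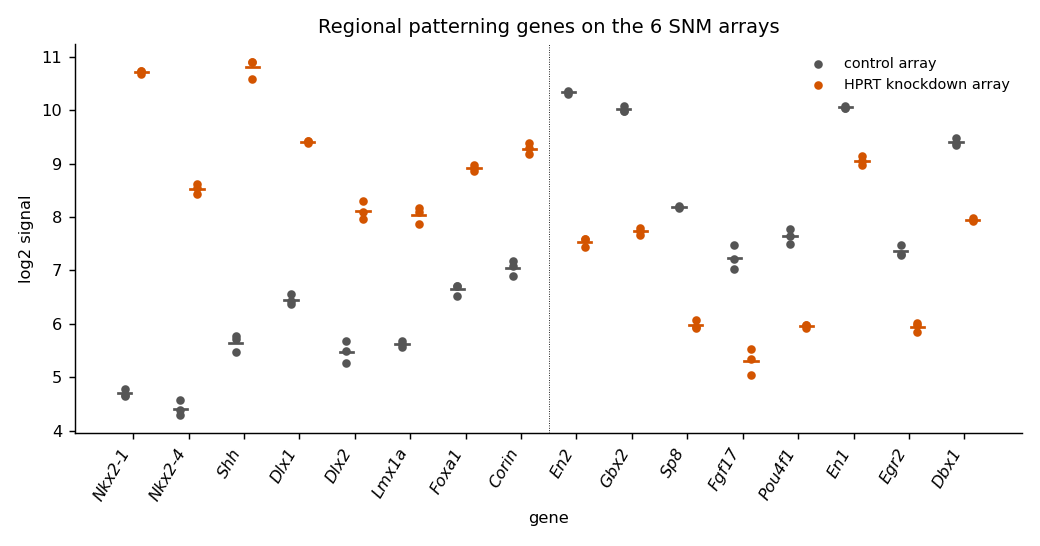
Log2 signal (vertical axis) of 16 patterning genes on the 3 control (grey) and 3 HPRT knockdown (orange) SNM arrays, with a short line at each mean; Dlx2 was added after its values were seen. The 8 floor plate and forebrain genes left of the dotted line are higher on every knockdown array, and the 8 midbrain and hindbrain genes right of it are lower on every knockdown array. Members of the regional lists that went the other way (among them Ddc, Gsx1, Vax2, Sall3 and Cdx2) or were not called (such as Fgf8) are not shown.

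Midbrain, isthmus and hindbrain genes were lower. Of 20 of 29 midbrain and isthmus genes tested, 12 fell and 1 rose (median log2 fold change -0.77), and of 17 detected on all 6 arrays 9 fell. En2, one of the engrailed genes that define midbrain and cerebellum, gave 10.30, 10.35 and 10.36 on the control arrays and 7.59, 7.58 and 7.44 on the knockdown arrays, a change of -2.80 ± 0.066 (adjusted p = 1.38e-14), and its paralogue En1 gave 10.05, 10.04 and 10.08 on the control arrays and 8.98, 9.04 and 9.14 on the knockdown arrays, 2.01-fold less signal (adjusted p = 1.99e-08). Both kept a clear signal in knockdown cells. Gbx2, which sets the hindbrain side of the boundary, gave 9.98, 10.08 and 9.98 on the control arrays and 7.74, 7.80 and 7.66 on the knockdown arrays, a change of -2.28 ± 0.061. Fgf17, a boundary ligand of the Fgf8 family, fell by 1.93 on the log2 scale, Sp8, a zinc finger factor that maintains Fgf8 expression, by 2.21, Ebf1, a factor of differentiating neurons, by 1.92 and Pou4f1, of midbrain and sensory neurons, by 1.68. Fgf8 itself had a log2 fold change of 0.11 ± 0.14 (adjusted p = 0.558) and was not called. The only rise in the list was Sall3, a zinc finger factor, with 1.74 ± 0.22.

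Of 20 hindbrain and spinal cord genes tested 7 fell (4 to 7 with the alternative normalizations) and 1 rose. Egr2, which patterns the rhombomeres and later drives Schwann cell myelination, gave 7.30, 7.30 and 7.47 on the control arrays and 5.86, 5.97 and 6.02 on the knockdown arrays, a change of -1.41 ± 0.087 (adjusted p = 1.88e-09). Dbx1, a factor of intermediate spinal and hindbrain precursors, fell by 1.46 and Irx2 by 1.38 on the log2 scale. The rise belonged to Cdx2, a posterior and trophoblast factor that was detected on 2 of 3 control arrays and had 1.31 ± 0.098. The Hox genes, which number the segments of hindbrain and trunk, did not fall with the engrailed genes. Of 19 of 39 tested, 6 were higher (2 to 3 with the alternative normalizations) and 0 lower, among them the trunk genes Hoxc9 with 1.51 ± 0.079 and Hoxc6 with 1.29 ± 0.14, both on chromosome 15. The hindbrain gene Hoxa2 (-0.16 ± 0.15) was not called.

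Genes of the BMP, Wnt, FGF and retinoid systems changed in both directions. Of 43 BMP, activin and TGF-beta genes tested 13 (30.2%) were higher and 3 (6.98%) lower. Bmp3, a member of the family that antagonises osteogenic BMPs, gave 6.02, 5.98 and 5.85 on the control arrays and 9.42, 9.38 and 9.31 on the knockdown arrays, a change of 3.42 ± 0.079 (adjusted p = 1.21e-14). Gdf10, or Bmp3b, rose by 2.12 ± 0.084, and Sostdc1, a secreted BMP and Wnt antagonist, by 3.36 ± 0.087. Fst, which binds activin, fell by 1.07 on the log2 scale. The target Id1 (0.38 ± 0.067) was not called and Id4, an inhibitor of basic helix-loop-helix factors, rose by 1.36 ± 0.085. Among 41 Wnt genes, 8 rose and 5 fell (3 with the alternative normalizations): the antagonists Wif1 and Dkk3 rose by 1.88 ± 0.18 and 1.33 ± 0.076 and the ligand Wnt5a by 1.22 ± 0.17, while the modulator Sfrp2 fell by 1.53 on the log2 scale. The common Wnt target Axin2 had -0.08 ± 0.11 and was not called. FGF genes gave 4 rises (2 to 3 with the alternative normalizations) and 7 falls of 32, with the feedback inhibitor Spry4 at -1.33 ± 0.13 and Fgfbp1, a carrier that releases FGFs, at -1.49 ± 0.11.

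Retinoid handling was divided, with 6 of 23 tested genes higher (3 with the alternative normalizations) and 7 lower. Crabp2, which carries retinoic acid to its nuclear receptors, gave 9.10, 8.97 and 8.78 on the control arrays and 6.58, 6.65 and 6.46 on the knockdown arrays, a change of -2.38 ± 0.13 (adjusted p = 6.48e-10). Crabp1, the related binding protein, gave 10.86, 10.87 and 10.82 on the control arrays and 9.12, 8.88 and 8.97 on the knockdown arrays, a change of -1.86 ± 0.077. Both binding proteins were lower on every knockdown array. Cyp26b1, which degrades retinoic acid and was detected on 1 of 3 knockdown arrays, fell by 1.69 on the log2 scale. In the other direction Rdh5, a retinol dehydrogenase, rose by 2.65 ± 0.16 and Ttr, the carrier of retinol-binding protein and thyroid hormone made by choroid plexus and liver, by 2.87 ± 0.082. Aldh1a1, a retinaldehyde dehydrogenase of dopaminergic precursors, was detected on 2 of 3 control arrays and had 1.22 ± 0.14. Aldh1a2, the main embryonic synthesising enzyme, had -0.53 ± 0.17 and was not called, with dim means of 5.18 and 4.66 and detection on 1 of 3 knockdown arrays.

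Genes of the cell cycle fell together. Of 39 of 41 DNA replication and S phase genes tested, 31 were lower and 0 higher, with a median log2 fold change of -0.72 and a range from -1.38 to -0.26. Of 37 of 41 mitosis and G2 genes, 29 were lower and 0 higher, with a median of -0.84. Each single fall was moderate. Rrm2, the regulated subunit of ribonucleotide reductase, gave 9.76, 9.76 and 9.49 on the control arrays and 8.35, 8.36 and 8.16 on the knockdown arrays, a change of -1.38 ± 0.097 (adjusted p = 8.35e-09). Ccne1, the cyclin of the G1 to S transition, fell by 1.23 on the log2 scale, Chaf1b, a chromatin assembly factor, by 1.15 and the helicase subunit Mcm2 by 0.85. Among mitotic genes Bub1b, of the spindle checkpoint, gave 10.27, 10.07 and 10.04 on the control arrays and 9.24, 9.09 and 9.03 on the knockdown arrays, a change of -1.01 ± 0.093 (adjusted p = 1.99e-07), and the phosphatase Cdc25c and the kinesin Kif23 fell by 1.01 and 0.96 on the log2 scale. The sliding clamp Pcna (-0.55 ± 0.15) and the proliferation marker Mki67 (-0.50 ± 0.091) were below 0 on the log2 scale but under 1.5-fold. In a bulk sample, fewer cycling cells and less RNA of these genes per cycling cell cannot be told apart.

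Inhibitors of the cell cycle did not rise in turn. Of 26 cell cycle inhibitors and p53 targets 1 was higher (none with the alternative normalizations or without control array 2, knockdown array 1 or knockdown array 2) and 6 lower. The p53 target Cdkn1a, which encodes p21, had -0.19 ± 0.066 and was not called, while Cdkn2a, the locus of p16 and p19Arf, fell by 1.29 and Cdkn1c, which encodes p57, by 0.90 on the log2 scale.

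Promoter sequences of these genes were read to show what the falling groups hold upstream of their starts. In the 250 bases before the start, RefSeq (GRCm38.p6) gave a promoter for 32 of the 39 S phase genes and 31 of the 37 mitosis genes. Words were searched on both strands, and they were chosen after others had been tried. An E2F word (TTTGGCGC, TTTCCCGC, TTTGCCGC or TTTCGCGC), the kind bound by the E2F factors that switch on S phase genes, stood in 7 of 32 S phase promoters (21.9%) against 2.16% of 27025 genes. The CHR word TTTGAA, which the DREAM complex uses to silence mitotic genes in resting cells, stood in 12 of 31 mitosis promoters (38.7%) against 18.3% of all, and CCAAT, the word of the factor NF-Y, in 24 of 31 (77.4%) against 37.5%. CCAAT also stood in 56.2% of the S phase promoters and in 56.2% of 16 floor plate promoters, a list that mostly rose, and the CHR word in 3 of 32 S phase promoters (9.38%). A Gli word, GACCACCCA, was searched as well and stood in none of the 16 floor plate promoters, against 0.255% of all. A match is a description of the letters and not of binding. Uhrf1, a reader of methylated DNA during replication, and Orc1l, the largest subunit of the origin recognition complex, are shown for the E2F word, and Ube2c, an ubiquitin-conjugating enzyme of mitotic exit, and Kif22, a chromosome-moving kinesin, for the CHR word, with the matched letters in capitals on either strand. Their log2 fold changes were -0.85, -0.82, -0.91 and -0.90, and they were picked for their matches after the values were seen.
Uhrf1, chr17:56304063-56304312, plus strand: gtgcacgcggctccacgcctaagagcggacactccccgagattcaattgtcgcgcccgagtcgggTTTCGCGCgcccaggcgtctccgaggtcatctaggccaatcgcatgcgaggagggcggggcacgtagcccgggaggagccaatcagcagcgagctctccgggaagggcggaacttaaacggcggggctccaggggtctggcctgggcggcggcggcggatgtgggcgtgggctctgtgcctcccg
Orc1l, chr4:108579204-108579453, plus strand: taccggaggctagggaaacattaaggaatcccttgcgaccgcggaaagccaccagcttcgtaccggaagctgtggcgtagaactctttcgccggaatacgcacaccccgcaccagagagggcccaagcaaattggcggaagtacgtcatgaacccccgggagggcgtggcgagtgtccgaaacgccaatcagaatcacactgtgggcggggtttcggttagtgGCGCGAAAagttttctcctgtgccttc
Ube2c, chr2:164769679-164769928, plus strand: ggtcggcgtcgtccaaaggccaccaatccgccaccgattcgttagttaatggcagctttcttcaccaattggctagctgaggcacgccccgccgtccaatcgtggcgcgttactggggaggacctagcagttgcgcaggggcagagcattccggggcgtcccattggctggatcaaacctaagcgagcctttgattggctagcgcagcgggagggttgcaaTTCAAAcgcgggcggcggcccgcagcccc
Kif22, chr7:127042421-127042670, minus strand: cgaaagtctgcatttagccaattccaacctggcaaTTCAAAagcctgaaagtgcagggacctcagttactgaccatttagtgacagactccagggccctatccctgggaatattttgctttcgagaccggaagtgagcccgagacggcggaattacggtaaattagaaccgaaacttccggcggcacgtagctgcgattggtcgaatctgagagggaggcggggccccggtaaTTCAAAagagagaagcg

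Factors of the undifferentiated state and of early chromatin were lower. Of 32 of 35 pluripotency genes tested, 14 were lower and 3 higher. Nanog gave 10.57, 10.61 and 10.60 on the control arrays and 9.71, 9.84 and 9.90 on the knockdown arrays, a change of -0.78 ± 0.078 (adjusted p = 5.03e-07), and Esrrb and Zfp42, 2 other factors of naive ES cells, fell by 0.99 and 0.91 on the log2 scale. Pou5f1 with -0.10 ± 0.079 (adjusted p = 0.312) was not called, nor was Sox2, whose 0.34 ± 0.13 (adjusted p = 0.0427) was under 1.5-fold. Lin28b, an RNA-binding protein that blocks let-7 maturation in early cells, gave 9.74, 9.68 and 9.67 on the control arrays and 7.53, 7.49 and 7.49 on the knockdown arrays, a change of -2.19 ± 0.063, and its paralogue Lin28 fell by 1.12 on the log2 scale. Of 34 DNA methylation and chromatin genes 10 fell and 2 rose. Ezh2, the methyltransferase of Polycomb complex 2, fell by 1.28 on the log2 scale (adjusted p = 0.0037), and Cbx7, a Polycomb complex 1 subunit encoded on chromosome 15, by 1.66. Dnmt3l, a cofactor of new DNA methylation, rose by 0.80 ± 0.085. The maintenance methyltransferase Dnmt1 had -0.52 ± 0.069 and was not called.

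**Figure D3:**
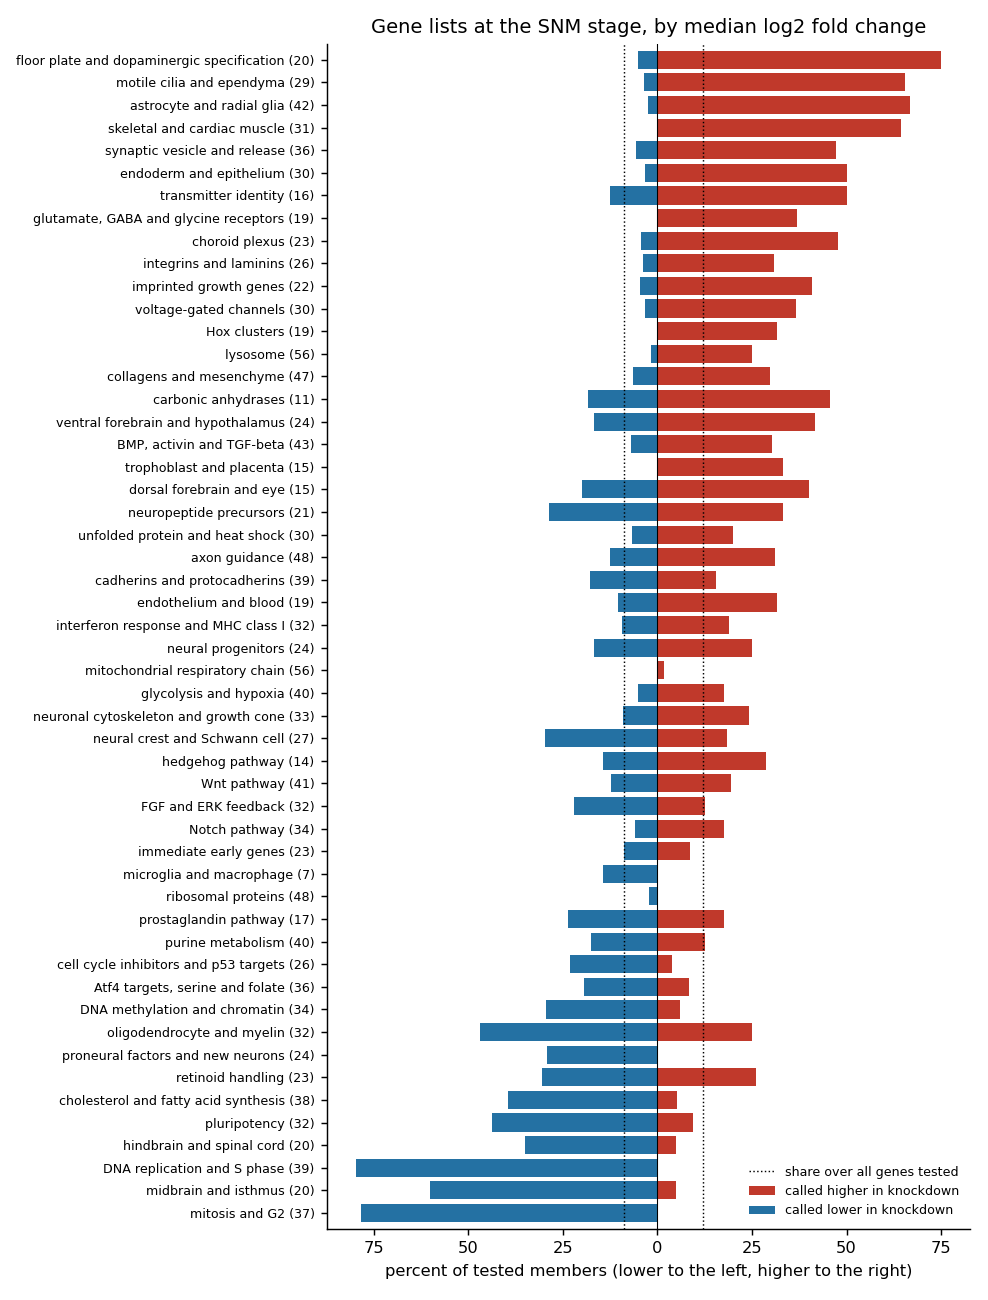
Percent of the tested members of each of 52 gene lists called higher (red, right) or lower (blue, left) in knockdown cells, ordered by the median log2 fold change, with the number tested in parentheses. Dotted lines mark the shares over all 14732 genes, 12% higher and 8.76% lower, and the mitosis, midbrain and DNA replication lists stand at the lower end and the floor plate, cilia and astrocyte lists at the upper end.

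Precursor genes as a group gave 6 rises and 4 falls (1 with each alternative normalization) of 24 tested. The intermediate filament genes rose: Vim gave 11.80, 11.72 and 11.64 on the control arrays and 13.05, 12.87 and 12.85 on the knockdown arrays, a change of 1.21 ± 0.083 (adjusted p = 6.44e-09), and Nes rose by 0.96 ± 0.12. Gpm6a, a membrane glycoprotein of neural cells, rose by 1.41 ± 0.088. Pou3f1, a POU factor of early neural cells, fell by 1.20 on the log2 scale. Sox3 was detected on 1 of 3 knockdown arrays, and its fall of 0.89 on the log2 scale was under 1.5-fold in all 3 alternative normalizations. The Notch pathway, which holds precursors back from differentiation, had 6 of 34 genes higher and 2 lower (1 to 2 with the alternative normalizations). Its receptor Notch1 (0.48 ± 0.11) and its targets Hes1 (-0.19 ± 0.11) and Hes5 (0.54 ± 0.11) were not called, and the largest rise was that of Id4, given above.

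Factors of new neurons fell, while genes of transmission rose. Of 24 of 32 proneural genes tested none rose (1 without control array 3 or knockdown array 3) and 7 fell. Neurod4, a basic helix-loop-helix factor of new neurons, gave 7.58, 7.74 and 7.70 on the control arrays and 5.56, 5.82 and 5.44 on the knockdown arrays, a change of -2.07 ± 0.12 (adjusted p = 9.91e-10), and Ebf2 fell by 1.73 on the log2 scale. The proneural gene Neurog2 (0.56 ± 0.084) was not called. Nefm, the medium neurofilament subunit, gave 9.45, 9.45 and 9.43 on the control arrays and 7.35, 7.31 and 7.57 on the knockdown arrays, a change of -2.03 ± 0.091 (adjusted p = 3.95e-11). Of 33 neuronal cytoskeleton and growth cone genes tested, however, 8 rose (4 to 8 with the alternative normalizations). Only 3 fell (2 with each alternative normalization, and 2 to 5 without 1 array). The largest rise of that list was D11Bwg0517e, now named Rbfox3, with 1.53 ± 0.19, and its 2 probes agreed. The growth cone genes Stmn2 (0.02 ± 0.054) and Gap43 (-0.14 ± 0.096) were not called. Neuronal tubulin, Tubb3, gave a dim signal, with means of 5.04 and 4.66, was detected on 1 of 3 knockdown arrays and was not called.

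Synaptic vesicle and release genes were higher for 17 of 36 tested and lower for 2, with a median log2 fold change of 0.58. All 17 rises were among the 30 members detected on all 6 arrays. Syp, an integral protein of synaptic vesicles, gave 8.40, 8.35 and 8.11 on the control arrays and 9.87, 9.76 and 9.58 on the knockdown arrays, a change of 1.45 ± 0.14 (adjusted p = 4.35e-07). Cadps, which primes dense-core vesicles, rose by 1.49 ± 0.084, Chgb, a secretory granule protein, by 1.44 ± 0.15 and Syn1, a vesicle-associated phosphoprotein, by 1.02 ± 0.071. The calcium sensor Syt1 had 0.25 ± 0.095 and was not called. Both falls, those of Sncg and of the chromosome 15 gene Syngr1, were under 1.5-fold in all 3 alternative normalizations, and that of Syngr1 was also under it without control array 1 (-0.54), control array 2 (-0.55) or knockdown array 3 (-0.57), against -0.61 with all arrays. Receptors for glutamate, GABA and glycine gave 7 rises (3 with each alternative normalization) and no fall (1 without control array 1 or 2) of 19, with the AMPA subunit Gria2 at 1.03 ± 0.16. Voltage-gated channels gave 11 rises (5 to 6 with the alternative normalizations) and 1 fall (none with the alternative normalizations) of 30, led by the potassium channel Kcnd2 at 1.86 ± 0.12 on 1 of 2 probes.

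Of 16 transmitter identity genes tested 8 rose (5 to 6 with the alternative normalizations) and 2 fell (1 with each). Gad1, the GABA-synthesising decarboxylase, gave 7.68, 7.74 and 7.83 on the control arrays and 9.60, 9.81 and 9.77 on the knockdown arrays, a change of 1.98 ± 0.073 (adjusted p = 3.88e-12), and was called on 2 of 3 probes. Slc32a1, the vesicular GABA transporter, rose by 0.78 ± 0.14. Hdc, which makes histamine in the posterior hypothalamus, rose by 1.93 ± 0.086 on 1 of 2 probes, and Slc6a9, a glycine transporter, by 1.09 ± 0.099. The glutamate transporter Slc17a6 had -0.44 ± 0.12 and was not called. Neuropeptides split, 7 of 21 tested being higher (3 with each alternative normalization) and 6 lower. Sst, the somatostatin precursor, gave 10.47, 10.64 and 10.50 on the control arrays and 8.41, 8.46 and 8.57 on the knockdown arrays, a change of -2.06 ± 0.100 (adjusted p = 1.03e-10). Cartpt fell by 1.52 and Npy by 0.84 on the log2 scale, and Vip was at least 1.97-fold lower, with no knockdown array detecting it. Pmch, the melanin-concentrating hormone of the lateral hypothalamus, was detected on all knockdown arrays and no control array and was at least 7.47-fold higher. Pdyn, the dynorphin precursor, rose by 1.22 ± 0.12 on 1 of 2 probes.

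Guidance and adhesion genes moved both ways. Of 48 axon guidance genes 15 rose and 6 fell (6 to 8 and 3 with the alternative normalizations). Efnb3, a transmembrane ephrin of the ventral midline detected on 2 of 3 control arrays, had 2.02 ± 0.12, and Sema5a, on chromosome 15, fell by 0.96 on the log2 scale. Of 39 cadherins and protocadherins 6 rose and 7 fell, against 2 to 3 and 0 with the alternative normalizations and 4 falls without control array 2. Celsr1, a planar polarity cadherin also on chromosome 15, rose by 1.35 ± 0.097, while the epithelial cadherin Cdh1 (0.32 ± 0.069) was not called. The neural cadherin Cdh2 (-0.12 ± 0.21) was not called either. Its only tested probe was near the array background, with means of 4.96 and 4.85, and was detected on 2 of 3 knockdown arrays.

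Astrocyte and radial glia genes were higher in 28 of 42 tested cases and lower in 1, with a median log2 fold change of 0.82. Apoe, the lipid carrier that astrocytes secrete, gave 9.01, 8.89 and 8.75 on the control arrays and 11.83, 11.70 and 11.76 on the knockdown arrays, a change of 2.88 ± 0.076 (adjusted p = 5.92e-14). Gfap, the astrocyte intermediate filament, gave 9.41, 9.41 and 9.23 on the control arrays and 11.25, 11.12 and 10.92 on the knockdown arrays, a change of 1.75 ± 0.096 (adjusted p = 4.75e-10). Both rose from signals that were already well above background in control cells. Ttyh1, a chloride channel of radial glia, rose by 2.71 ± 0.073, Mt3, a metallothionein of brain, by 2.68 ± 0.11, Aqp4, the water channel of astrocyte endfeet, by 1.40 ± 0.34 and Aldh1l1, a folate enzyme of astrocytes, by 1.90 ± 0.11 on 1 of 2 probes. Slc1a3, a glutamate transporter, had 0.56 ± 0.078 and was not called. The single fall was Gpr37l1, a receptor of astrocytes and oligodendrocyte precursors, which gave 7.10, 6.93 and 6.91 on the control arrays and 5.02, 4.74 and 4.87 on the knockdown arrays, a change of -2.10 ± 0.079 (adjusted p = 4.5e-12).

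Oligodendrocyte and myelin genes were split, with 15 of 32 tested lower and 8 higher (3 higher with each alternative normalization, and 5 without knockdown array 3). The lineage factor Sox10, shared with neural crest, gave 11.03, 10.95 and 11.04 on the control arrays and 9.22, 9.32 and 9.23 on the knockdown arrays, a change of -1.75 ± 0.084 (adjusted p = 8.53e-11). Mbp, a structural protein of compact myelin, gave 11.87, 11.85 and 11.79 on the control arrays and 9.94, 9.89 and 10.04 on the knockdown arrays, a change of -1.88 ± 0.13 (adjusted p = 7.69e-09). Both genes gave a clear signal in either condition and were lower on every knockdown array. Mag, an adhesion molecule of the inner myelin layer, fell by 2.21 on the log2 scale, Enpp6, of newly formed oligodendrocytes, by 2.12 and Opalin, detected on 1 of 3 knockdown arrays, by 2.35. Olig2, which specifies the lineage, had 0.12 ± 0.11 and was not called. The largest rises of the list were in Ptgds and Cd82. Ptgds, a prostaglandin D synthase secreted by oligodendrocytes, meninges and choroid plexus, gave 7.09, 7.07 and 6.97 on the control arrays and 10.57, 10.42 and 10.73 on the knockdown arrays, a change of 3.53 ± 0.099 (adjusted p = 1.47e-13), and Cd82, a tetraspanin, rose by 1.90 ± 0.12. Neural crest genes fell for 8 of 27 and rose for 5 (5 and 3 to 4 with the alternative normalizations). Tcfap2b, or AP-2 beta, a factor of neural crest and hindbrain, gave 9.78, 10.07 and 10.73 on the control arrays and 7.50, 7.76 and 8.11 on the knockdown arrays, a change of -2.41 ± 0.28 (adjusted p = 2.46e-06), and all 6 of its probes were called lower.

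**Figure D4:**
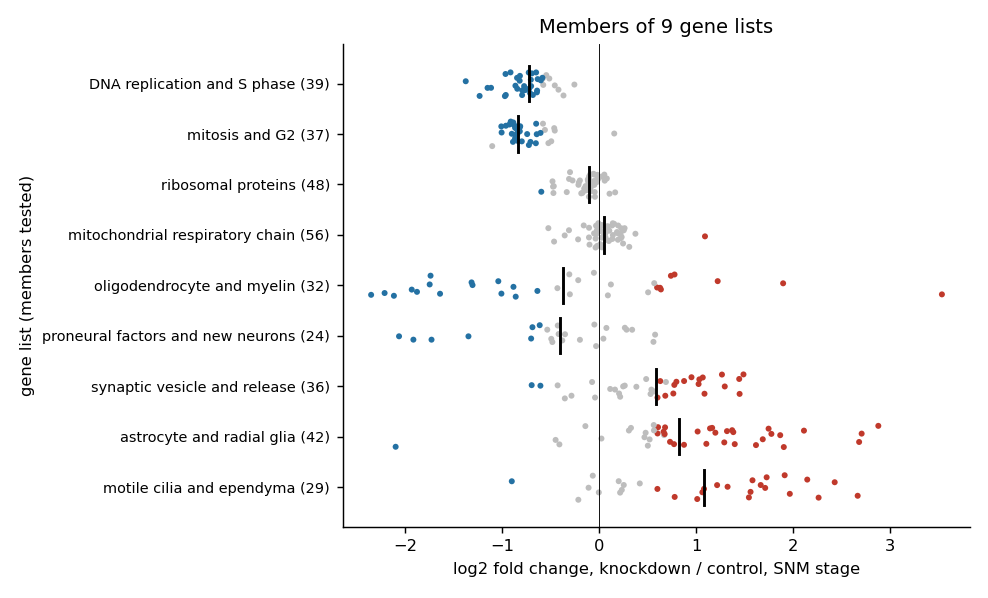
Log2 fold change of knockdown over control cells (horizontal axis) for each tested member of 9 gene lists, with red points called higher, blue points called lower, grey points not called and a black line at each list's median. DNA replication and mitosis genes lie together below 0, ribosomal and respiratory chain genes around 0, and oligodendrocyte genes on both sides of it.

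Genes of motile cilia and ependyma were among the most shifted upward, while the probe of their master factor was near the array background and not called. Of 29 of 40 genes tested, 19 were higher and 1 lower (median log2 fold change 1.08), and of 15 detected on all 6 arrays 8 and 1. Ccno, a cyclin-like protein needed to multiply centrioles, gave 5.30, 5.41 and 5.46 on the control arrays and 8.06, 8.03 and 8.09 on the knockdown arrays, a change of 2.67 ± 0.090 (adjusted p = 1.33e-12). Lrrc23, a radial spoke protein, gave 5.17, 4.83 and 4.81 on the control arrays and 7.42, 7.22 and 7.45 on the knockdown arrays, a change of 2.43 ± 0.15 (adjusted p = 2.04e-09). Rsph1, another radial spoke protein, rose by 1.73 ± 0.11 and Tekt1, a tektin of the axoneme, by 1.71 ± 0.090. Foxj1, the factor that commits cells to motile cilia, was detected on 2 of 3 control arrays and had 0.25 ± 0.16 (adjusted p = 0.209). Its mean log2 signals were 4.81 in control and 5.06 in knockdown cells, so that a change could hardly be measured. Rfx4, of the RFX family, rose by 1.56 ± 0.19 on 1 of 2 probes. The RFX half-site GTTGCCA stood in 7 of the 24 cilia promoters in the RefSeq table (29.2%) against 4.19% of all 27025 genes; it overlaps CCAAT where AT follows it. The promoters of the 2 members with the largest rises among those holding the word are shown with it in capitals.
Ccno, chr13:112987552-112987801, plus strand: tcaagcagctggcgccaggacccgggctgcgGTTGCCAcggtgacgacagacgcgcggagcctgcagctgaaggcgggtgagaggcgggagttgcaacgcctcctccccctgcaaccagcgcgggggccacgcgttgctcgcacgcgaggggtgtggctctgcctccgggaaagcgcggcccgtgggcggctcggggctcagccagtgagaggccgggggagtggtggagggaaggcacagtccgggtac
Lrrc23, chr6:124779728-124779977, minus strand: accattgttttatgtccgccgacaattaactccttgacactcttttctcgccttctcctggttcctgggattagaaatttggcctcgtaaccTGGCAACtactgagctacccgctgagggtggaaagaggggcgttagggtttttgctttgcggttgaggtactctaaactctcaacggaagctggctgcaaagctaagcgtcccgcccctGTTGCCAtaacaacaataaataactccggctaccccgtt

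Choroid plexus genes, of the epithelium that secretes cerebrospinal fluid, were higher in 11 of 23 cases (7 to 8 with the alternative normalizations) and lower in 1. Ttr, introduced above, gave 5.61, 5.70 and 5.61 on the control arrays and 8.44, 8.54 and 8.54 on the knockdown arrays (adjusted p = 1.9e-13). The summed linear signal of the tested members ran from 7707 to 8466 over the control arrays and from 22530 to 24140 over the knockdown arrays. Folr1, the folate receptor of this epithelium, was at least 1.64-fold higher, with no control array detecting it, but its change was under 1.5-fold with quantile normalization (log2 0.55) and with an offset of 50 (0.52). The water channel Aqp1 had -0.58 ± 0.085 and was not called, and Kl was not among the probes tested.

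Markers of cell types outside the neural lineage moved with the condition as well, and their part in the neural results was not tested. The skeletal and cardiac muscle list had 20 of 31 tested genes higher (13 to 14 with the alternative normalizations) and none lower. Myh3, the embryonic myosin heavy chain, gave 7.48, 7.42 and 7.26 on the control arrays and 9.04, 9.19 and 9.02 on the knockdown arrays, a change of 1.69 ± 0.10 (adjusted p = 1.08e-09). Myh8, the perinatal chain, rose by 1.99 ± 0.16, Chrng, the fetal acetylcholine receptor subunit, by 1.63 ± 0.095 and the cardiac actin Actc1 by 1.46 ± 0.090. The skeletal actin Acta1 had 0.23 ± 0.17 and was not called. Summed over tested members the linear muscle signal was 5499 to 5594 on control and 10020 to 10340 on knockdown arrays.

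The endoderm and epithelium list had 15 of 30 tested genes higher and 1 lower, and of 22 detected on all 6 arrays 9 and 1. Krt8, a keratin of simple epithelia encoded on chromosome 15, gave 8.17, 8.25 and 7.80 on the control arrays and 10.99, 11.04 and 10.87 on the knockdown arrays, a change of 2.89 ± 0.096 (adjusted p = 1.08e-12). Krt19, another keratin of simple epithelia, was detected on no control array and was at least 21.3-fold higher, Krt14, of stratified epithelia, rose by 3.42 ± 0.16 and Gata6, of primitive endoderm, by 1.92 ± 0.10. Sox17 (-0.15 ± 0.096) was not called and Afp was not among the probes tested. The summed linear signal of the list was 4222 to 4772 on control and 8180 to 8479 on knockdown arrays. Of 15 trophoblast and placenta genes 5 were higher, 1 of them among the 7 detected on all 6 arrays.

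Collagens and mesenchyme, the list that also covers the fibroblast feeder cells, had 14 of 47 genes higher and 3 lower (1 to 3 with the alternative normalizations), with summed linear signals of 31130 to 32160 and 39890 to 42460. The fibrillar collagen Col1a1 rose by 0.97 ± 0.15, while Col1a2 (0.58 ± 0.20), Col3a1 (0.12 ± 0.16) and periostin, Postn (0.28 ± 0.098), were not called. Vtn, vitronectin of plasma and matrix, gave 6.86, 6.28 and 6.53 on the control arrays and 10.05, 9.87 and 9.83 on the knockdown arrays, a change of 3.36 ± 0.12 (adjusted p = 4.09e-12). Integrins and laminins rose for 8 of 26 (5 with each alternative normalization) and fell for 1 (none with each). Endothelial and blood genes rose for 6 of 19 (2 with each) and fell for 2 (1 with each), with Pecam1 at 0.22 ± 0.13 and Emcn, endomucin, at -1.95 ± 0.081. Of 26 microglial genes on the array 7 were tested, all 7 detected on all 6 arrays, and 1 (14.3%) was lower and none higher. Aif1, Cx3cr1 and Ptprc were not tested. Csf1r was near the array background, with means of 4.96 and 4.87, and had -0.09 ± 0.20.

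Purine metabolism, the pathway of the targeted enzyme, had 5 of 40 tested genes higher (3 with each alternative normalization) and 7 lower, Hprt1 included. Adsl, which acts in both purine synthesis and the purine nucleotide cycle, gave 9.59, 9.44 and 9.54 on the control arrays and 8.49, 8.49 and 8.33 on the knockdown arrays, a change of -1.09 ± 0.085 (adjusted p = 3.14e-08). Aprt, the salvage enzyme for adenine, had -0.48 ± 0.058 and was not called. Entpd2, an ectonucleotidase that degrades extracellular ATP, gave 5.75, 5.66 and 5.56 on the control arrays and 8.04, 7.80 and 7.80 on the knockdown arrays, a change of 2.22 ± 0.13 (adjusted p = 1.48e-09), and the adenosine receptor Adora1 and P2ry14, a receptor for UDP-sugars, rose by 1.58 ± 0.15 and 1.34 ± 0.084.

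Cholesterol and fatty acid genes were lower in 15 of 38 cases and higher in 2 (none with the alternative normalizations or without knockdown array 2, and 1 without control array 3). Fa2h, a hydroxylase that makes myelin lipids, gave 7.88, 7.96 and 7.82 on the control arrays and 6.20, 6.44 and 6.09 on the knockdown arrays, a change of -1.64 ± 0.15 (adjusted p = 1.64e-07). The conditions did not overlap. Ugt8a, another enzyme of myelin lipids, fell by 1.01 on the log2 scale, and the fatty acid synthase Fasn (-0.27 ± 0.22) was not called.

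Few genes of the ribosome and the respiratory chain were called. Of 48 ribosomal genes 1 was called, Rpl30, a chromosome 15 gene that had -0.60 on 1 of 2 probes. It was under 1.5-fold without control array 1 (-0.58), control array 2 (-0.57) or knockdown array 2 (-0.53), which left no ribosomal gene called. Of 56 respiratory chain genes 1 was called, Cox6a2, the muscle form of a cytochrome oxidase subunit, with 1.09 ± 0.12. Glycolysis and hypoxia gave 7 rises and 2 falls (2 to 4 with the alternative normalizations) of 40, with Ldha at 0.07 ± 0.060 not called and Eno2, the neuronal enolase, at 1.12 ± 0.096. Among Atf4 targets 7 of 36 fell and 3 rose (1 to 2 with the alternative normalizations): Cth, of cysteine synthesis, fell by 1.16, Mthfd2, of mitochondrial folate metabolism, by 0.93 and Asns, asparagine synthetase, by 0.75 on the log2 scale, while Atf4 itself had -0.21 ± 0.065. The chaperone Hspa5 (0.20 ± 0.14) was not called, and the small heat shock protein Cryab rose by 1.96 ± 0.078. Interferon genes gave 6 rises (2 to 3 with the alternative normalizations) and 3 falls (1 to 3) of 32. Immediate early genes gave 2 of each in 23 (4 falls without control array 1), with Fos at 0.39 ± 0.11 and Egr1 at -0.30 ± 0.062, neither called.

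Lysosomal genes were higher in 14 of 56 cases (8 to 12 with the alternative normalizations) and lower in 1. Ctsa, the protective protein of the lysosomal sialidase complex, gave 7.32, 7.38 and 7.28 on the control arrays and 9.97, 9.93 and 9.64 on the knockdown arrays, a change of 2.52 ± 0.090 (adjusted p = 2.88e-12), on 1 of 3 probes, and the proteases Ctsh and Ctsl rose by 1.12 ± 0.081 and 1.07 ± 0.16. Of 22 imprinted growth genes 9 rose (5 to 6 with the alternative normalizations) and 1 fell. Igf2, the fetal growth factor, gave 11.91, 11.97 and 11.91 on the control arrays and 14.04, 14.14 and 14.04 on the knockdown arrays, a change of 2.14 ± 0.066 (adjusted p = 4.02e-13). Peg3 and its neighbour Usp29, expressed from the paternal allele, rose by 2.06 ± 0.33 and 2.87 ± 0.16, whereas H19, the maternal partner of Igf2, had 0.43 ± 0.071 and was not called.

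Several of the largest rises belonged to no patterning group. Ptgs1, cyclooxygenase 1, which makes prostaglandin H2, gave 5.21, 5.14 and 5.08 on the control arrays and 10.51, 10.43 and 10.47 on the knockdown arrays, a change of 5.33 ± 0.10 (adjusted p = 2.68e-15). Its 3 probes agreed in direction, the others rising by 3.57 ± 0.15 and 3.45 ± 0.072. Car3, a carbonic anhydrase of muscle and fat, gave 8.49, 8.55 and 8.52 on the control arrays and 13.54, 13.42 and 13.56 on the knockdown arrays, a change of 4.99 ± 0.12 (adjusted p = 1.38e-14). Angptl1, a secreted angiopoietin-like protein, gave 5.40, 5.57 and 5.45 on the control arrays and 10.16, 10.08 and 10.03 on the knockdown arrays, a change of 4.61 ± 0.083. In these genes the lowest knockdown array was far above the highest control array. Pde1a, a calmodulin-dependent phosphodiesterase detected on 2 of 3 control arrays, had 4.24 ± 0.14, and Dynlrb2, a dynein light chain of cilia detected on 1 of 3, 4.10 ± 0.13. Rab38, a GTPase of lysosome-related organelles, had 3.93 ± 0.14, Lgals3, a galactoside-binding lectin, 3.89 ± 0.090, Agt, the angiotensin precursor that astrocytes express, 3.79 ± 0.071, Htra1, a secreted serine protease, 3.72 ± 0.083 and Prelp, a matrix proteoglycan, 3.70 ± 0.11. Among the largest falls outside the lists were Mmp3, a matrix metalloproteinase, with -2.27 ± 0.097, and Meox2, a mesodermal homeodomain factor, with -2.07 ± 0.11. The fall that exceeded 8-fold belonged to a predicted gene with a placeholder symbol.

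The knockdown effect at this stage was then set against the effect at the ES and the neuronal stage, each stage having its own control arrays. Of 15667 genes tested for a difference between the SNM and the ES effect, 1998 (12.8%) had a higher log2 fold change at the SNM stage and 1505 (9.61%) a lower one. Of 15581 genes tested between the neuronal and the SNM effect, 2073 (13.3%) were higher and 2495 (16%) lower at the neuronal stage. Within the single stages, 0.529% of 13227 genes were called higher and 1.28% lower in knockdown cells at the ES stage, and 14.3% of 14774 were called in each direction at the neuronal stage. The medians of the gene lists at the ES stage lay between -0.41 and 0.24. Of 39 DNA replication genes tested there none was called, and 25 of the list had a lower effect at the SNM stage than at the ES stage. The mitosis list gave 26 such genes and the midbrain list 12, while 16 floor plate genes and 30 astrocyte genes had a higher one.

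Between the SNM and the neuronal stage some groups kept their direction and others turned. Of 1679 genes higher at the SNM stage and tested at the neuronal stage, 536 were higher again and 350 lower, and of 1232 lower genes 464 were lower again and 137 higher. DNA replication genes were lower again in 31 of 38 cases (median log2 fold change -1.04), and 3 of the list differed between the stages. Midbrain genes were lower in 13 of 18 and astrocyte genes higher in 26 of 41. Oligodendrocyte genes turned from a median of -0.37 to 4.54, 29 of 32 being higher at the neuronal stage, and the effect was higher there than at the SNM stage for 28 genes. For Mbp the effect differed by 7.81 (adjusted p = 5.44e-15), its mean log2 signal being 8.41 in control and 14.34 in knockdown neuronal cells. Muscle genes turned the opposite way, from 0.78 to -6.64, and 27 of 30 were lower at the neuronal stage. For Myh3 the effect differed by -9.83 (adjusted p = 1.84e-17), with means of 12.98 in control and 4.84 in knockdown neuronal cells, where it was detected on 2 of 3 arrays. Synaptic genes had a lower effect at the neuronal than at the SNM stage for 20 genes, 14 of 35 being lower and 6 higher in knockdown neuronal cells. Cholesterol genes went from -0.47 to 0.31, with a higher effect for 20.

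**Figure D5:**
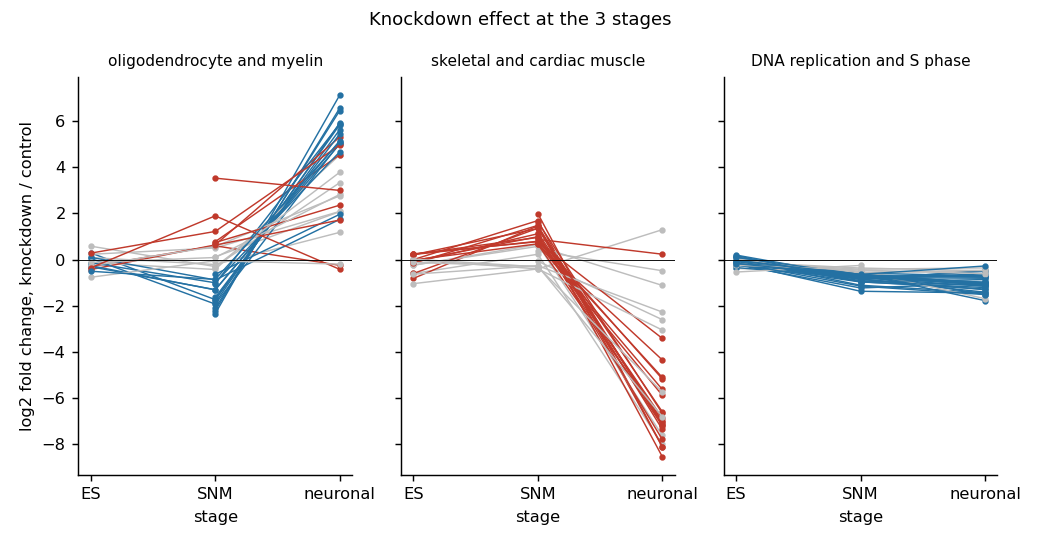
Log2 fold change of knockdown over control cells (vertical axis) at the ES, SNM and neuronal stages for each member of 3 gene lists, with lines coloured by the call at the SNM stage (red higher, blue lower, grey not called) and no point where a member was not tested. Oligodendrocyte genes lower at the SNM stage are higher at the neuronal stage, muscle genes turn from higher to lower, and DNA replication genes are lower at both.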

How the data were processed

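RNA of 18 Illumina MouseWG-6 v2 arrays was measured by the authors in triplicate for each of 6 conditions. The table that the authors deposited holds bead-averaged signal intensities, neither background-corrected nor normalized, and a detection p-value beside each of them. A second deposited table gave the annotation of the probes, and its 72 columns of values, named by chip, were not used, nor were columns of the authors' own comparisons.

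The neqc function of limma 3.58.1 (R 4.3.3) corrected the intensities for background, inferred through their detection p-values, with an offset of 16, followed by quantile normalization and log2. A single limma model over 18 arrays (12 residual degrees of freedom, 3 arrays a condition) gave each comparison, with two-sided tests and Benjamini-Hochberg adjustment over all probes tested. A probe was tested if detected at p under 0.05 on all 3 arrays of a condition compared and called at an adjusted p under 0.05 and 1.5-fold. A gene was represented by its brightest tested probe, and symbols are those of the array. A probe detected on no array of a condition has a lower bound of its fold change, against the lowest detected signal of each array or its own where higher.

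Arrays are numbered as in their titles. Deviations of equally numbered control and knockdown SNM arrays correlated at 0.52, 0.11 and 0.51 across probes, so the number was also fitted as a block. The genes named are Hprt1, the 15 largest rises and 15 largest falls whose arrays do not overlap, and, for each list, its 4 defining genes and its largest called changes, with exceptions stated, and some genes that the rule names are not reported here. Members, 52 gene lists and tests were chosen with earlier results of these data known, and lists have no p-value. Promoters are those of RefSeq (GRCm38.p6). The number of arrays limits the precision, and the script was tested on simulated data. Alternatives covered normalization, offset, detection filter, fold threshold, arrays in the fit and the methods' t-tests.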

Additional observations from a re-analysis of the deposited data

Results flagged for a closer look

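For 5 of the 15 largest falls at the SNM stage the knockdown effect turned over between stages, with a call in the opposite direction at the neuronal stage and an adjusted p-value under 0.05 for the difference in limma. The genes were picked by these calls and this p-value, so the p-values below describe the picked genes and are no separate test. Opalin, a myelin membrane protein, changed by -2.35 (log2) in SNM and by 7.14 in neuronal cells, a difference of 9.49 (adjusted p = 4.97e-17). It was detected on 1 of 3 knockdown SNM arrays and on 2 of 3 control neuronal arrays, so that these values are partly measured from the array background. Mag changed by -2.21 and then by 6.57, a difference of 8.79 (adjusted p = 4.54e-16). Enpp6 changed by -2.12 and then by 6.46, a difference of 8.58 (adjusted p = 2.69e-11). Gpr37l1 changed by -2.10 and then by 5.20, a difference of 7.30 (adjusted p = 3.06e-17). Mmp3, which is no oligodendrocyte gene, changed by -2.27 and then by 1.30, a difference of 3.56 (adjusted p = 2.32e-12). Over all 1232 genes called lower at the SNM stage and tested at the neuronal stage, 137 were called higher there and 464 lower again. In each of the 5 genes control cells had a lower mean signal at the neuronal than at the SNM stage and knockdown cells a higher one: for Mag, detected on all arrays of both stages, log2 means were 9.13 and 5.91 in control and 6.91 and 12.48 in knockdown cells.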

How the results depend on the processing

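Neither Hprt1 nor any of the 276 called genes that the naming rule selects turned its direction under any alternative run. The median of 8 lists did change sign: these medians lay between -0.08 and 0.17 on the log2 scale and reached -0.14 to 0.03 on the other side of 0. They were those of the hedgehog, Wnt, dorsal forebrain, neural crest, microglia, glycolysis, respiratory chain and neuronal cytoskeleton lists. In 37 of 52 lists a count of calls moved by over 1.5 times with some alternative normalization and in 17 without 1 array, the counts concerned in the 17 being of 8 genes or fewer. The counts of 2278 probes higher and 1849 lower became 1378 and 937 with quantile normalization without background correction, 1240 and 1204 with scaling to the 75th percentile, 1498 and 1079 with an offset of 50, and 898 and 369 at 2-fold. They were 2249 and 1769 with the methods' unpaired t-test at their threshold and 2124 and 1606 after Benjamini-Hochberg, and 2170 and 1716, then 1387 and 938, with its paired form. Leaving out 1 array gave 2209 to 2326 and 1800 to 1952. The paired analysis, with array number as a replicate block, gave 2288 and 1935 over 18 arrays and 2290 and 1950 over the 6 SNM arrays, and it changed no call of the 276 called genes that the naming rule selects. Leaving the genes of chromosome 15 out, chosen after seeing the data, gave 2238 and 1699. Probes whose effect differed between the SNM and ES stages numbered 4715, against 2555 (quantile), 2912 (75th percentile), 2867 (offset 50) and 1491 (2-fold), and 4634 to 4864 without 1 array. Between the neuronal and SNM stages they numbered 6329, against 4014 (quantile), 4230 (75th percentile), 4392 (offset 50) and 3052 (2-fold), and 6258 to 6436 without 1 array. Hprt1 stayed between -1.69 and -1.79 on the log2 scale. Of the 276 genes, 55 lost their call under some alternative other than the t-tests, 47 of them with quantile normalization without background correction. Of the medians of 52 lists, 41 moved by more than their spread over arrays under some alternative. Signal over background limits the genes near 4.8 on the log2 scale, and 1 RNA pool per condition limits them all.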

Other observations

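Genes of chromosome 15 were lower in knockdown cells at the SNM stage as a whole chromosome, a pattern found after the values were seen. Of its 443 genes tested, 21.4% were called lower, against 5.48% to 12.6% on the other chromosomes, and 7.22% higher, against 9.77% to 15%. The median log2 fold change of -0.28 recurred in the numbered array pairs, with -0.29, -0.25 and -0.26, and along the chromosome, with -0.26, -0.29, -0.30 and -0.28 in 4 successive blocks of about equally many genes. At the ES stage the median was -0.046 and at the neuronal stage -0.041. In knockdown cells the chromosome's genes changed from the ES to the SNM stage by a median of -0.13, against -0.084 to 0.32 on other chromosomes, and from the SNM to the neuronal stage by 0.097, against -0.089 to 0.014. In control cells both medians, 0.054 and -0.069, lay within the range of the other chromosomes. The cause was not tested, and DNA copy number was not analysed here. Lists with several members there include the Hox clusters, of which 4 were on chromosome 15, and endoderm and epithelium, also with 4.

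At the SNM stage the carbonic anhydrases and the prostaglandin enzymes, not described as groups above, moved in opposite directions within each family. Of 11 carbonic anhydrases tested 5 rose and 2 fell. Car4, a membrane-anchored form, rose by 0.85 and Car1, a cytosolic form detected on no control array, was at least 2.96-fold higher, whereas Car2, the form of oligodendrocytes and choroid plexus, fell by 0.89 and Car12 by 0.79 on the log2 scale. Of 17 prostaglandin genes 3 rose and 4 fell (2 with each alternative normalization): beside Ptgs1 and Ptgds, Hpgd, which degrades prostaglandins, rose by 1.37, while Ptgis, prostacyclin synthase, fell by 0.89 and Akr1b3, an aldose reductase, by 0.96 on the log2 scale.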
